A study of Homo sapiens with 15 samples.

Results

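The subunits of the respiratory chain and of ATP synthase were examined in LNCaP, a human prostate cancer cell line that responds to androgen, as the messenger RNAs of both genomes that encode them. Members were the rows of the expression table whose gene symbols match the series MT-ND, MT-CO, MT-ATP and MT-CYB of the mitochondrial genome, and NDUFA, NDUFB, NDUFC, NDUFS, NDUFV, UQCR, ATP5, and COX4 to COX8 followed by A, B or C (which leaves out COX4I1) of the nuclear genome. Assembly factors with NDUFAF symbols and pseudogenes were dropped. This gave 92 of 17272 genes. Of these, 13 were encoded in the mitochondrial genome and 79 in the nucleus. Among the 79 nuclear rows, 74 encode subunits or close paralogs of subunits, 3 are antisense or divergent RNAs that carry a subunit's name (NDUFA6-AS1, NDUFB2-AS1 and NDUFV2-AS1), and ATP5S and ATP5SL are older symbols of proteins that associate with the chain (now DMAC2L and DMAC2). The table uses older symbols for ATP synthase, so that ATP5A1 is the gene now called ATP5F1A. The symbols MT-ATP6 and MT-ATP8 end in P and a digit but are not pseudogenes and were kept, while 32 true pseudogene rows were left out.

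Cells had been kept for 2 days in medium with charcoal-stripped serum, which holds little androgen. All libraries received 1 nM of the synthetic androgen R1881. The vehicle DMSO was given with it in 10 libraries and 2 µM of the androgen receptor blocker enzalutamide in 5 libraries, and cells were collected after 22 h, so no library was free of androgen. Libraries were made from polyadenylated RNA. The study calls the libraries of a treatment biological replicates. Neither it nor the labels say whether they came from separate cultures, so p-values measure only the spread between these libraries.

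The chain consists of large protein assemblies in the inner mitochondrial membrane. Complex I takes electrons from NADH, complex III passes them to cytochrome c, complex IV hands them to oxygen, and complex V (ATP synthase) uses the proton gradient built by the others to make ATP. The mitochondrial genome encodes a small core of complexes I, III, IV and V, and it is transcribed as long RNAs that are cut into single messages. All other subunits are nuclear genes, made in the cytosol and imported, and complex II is wholly nuclear. Each complex with mitochondrial members therefore needs products of both genomes.

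Gene counts of single libraries summed to 15830745 to 24316740 reads with R1881 + DMSO and to 21188661 to 25416052 with R1881 + enzalutamide. Values are read counts scaled to library size (CPM) as deposited, and fold changes are differences of mean log2(CPM + 0.5), R1881 + enzalutamide minus R1881 + DMSO, tested with limma across 17046 genes with Benjamini-Hochberg adjustment at a threshold of 0.05. All 10 LNCaP markers had a row, and KLK3, the gene of prostate-specific antigen, had 1588 ± 209 CPM (SD, n = 10) with R1881 + DMSO and 134 ± 7.66 CPM (SD, n = 5) with R1881 + enzalutamide. Of 6 markers of other cells, 2 had a row, and both were higher with R1881 + enzalutamide: COL1A1, a fibroblast collagen, at 6.03 against 9.96 CPM, and VIM, a mesenchymal filament, at 22.9 against 34.6 CPM. All 5 cell cycle genes were lower, among them MKI67 (log2 fold change -1.25), and both nuclear-retained RNAs, MALAT1 and NEAT1, were higher (0.60 and 0.50). The part of these changes in the results on subunits was not tested. In RNA of whole cultures, a change in the number of cells of a type and a change in RNA per cell cannot be told apart. The R1881 + enzalutamide libraries all carry library numbers from 81 to 85 and the R1881 + DMSO libraries numbers from 51 to 55 and from 71 to 75, so this numbering and the treatment cannot be told apart.

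The messages of the mitochondrial genome rose together, while the nuclear ones did not move in 1 direction. All 13 mitochondrially encoded messages were higher with R1881 + enzalutamide, with log2 fold changes from 0.19 to 0.41 and a median of 0.30. The nuclear-encoded members had a median of -0.05, with 23 of 79 lower, 6 higher and 50 not past the threshold. Over all genes tested the median was -0.01, 32.7% were lower and 29.8% higher. The 23 nuclear members that fell are 29.1% of the nuclear members, which is near the share of all genes that fell, whereas the 6 that rose are 7.59%.

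Summed over the 13 genes, the mitochondrial messages had 19096 CPM in the lowest R1881 + DMSO library, 20243 CPM in the median and 22996 CPM in the highest. In replicates 1 to 5 of R1881 + enzalutamide the sums were 25954, 24467, 25367, 25997 and 25734 CPM. The treatments did not overlap, and the mean was 23.4% higher with enzalutamide. The nuclear-encoded sum ran from 10026 to 10581 CPM with R1881 + DMSO, and was 10180, 9855, 10439, 9870 and 9994 CPM in the 5 R1881 + enzalutamide libraries. These ranges overlapped, and the mean changed by -2.74%, with 10352 ± 172 CPM (SD, n = 10) in R1881 + DMSO and 10068 ± 245 CPM (SD, n = 5) in R1881 + enzalutamide.

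**Figure D1:**
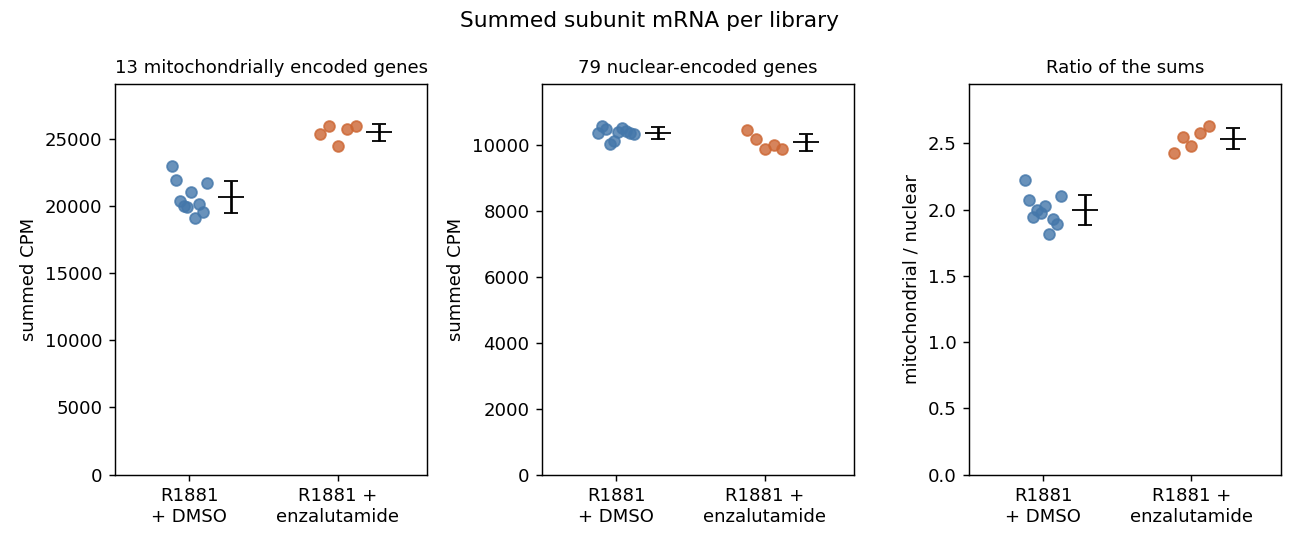
Summed CPM of the 13 mitochondrially encoded genes, summed CPM of the 79 nuclear-encoded genes, and the ratio of these sums, with a point per library and the mean ± SD as a black bar (10 libraries with R1881 + DMSO, 5 with R1881 + enzalutamide). The mitochondrial sums and the ratios of the treatments do not overlap, while the nuclear sums do.

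The ratio of the mitochondrial to the nuclear sum is taken within a library and does not depend on how libraries were scaled. It was 2.00 ± 0.116 (SD, n = 10) with R1881 + DMSO, from 1.82 to 2.22, and 2.53 ± 0.0796 (SD, n = 5) with R1881 + enzalutamide, from 2.43 to 2.63. Every R1881 + enzalutamide library was above every R1881 + DMSO library. On the log2 scale the difference between treatments was 0.35, against an SD of 0.08 among R1881 + DMSO libraries, and this ratio over chosen genes was given no test. By complex, the mitochondrial sums were 23.5% higher in complex I, 14.2% in complex III, 24.9% in complex IV and 21.6% in complex V, and the nuclear sums changed by -1.97%, -5.07%, 1.83% and -4.21%. The log2 ratio differed by 0.31 against libraries 51 to 55 alone and 0.38 against libraries 71 to 75 alone.

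As a share of all reads counted, the 13 mitochondrial genes took between 1.80% and 2.16% with R1881 + DMSO and between 2.48% and 2.59% with R1881 + enzalutamide. The 79 nuclear genes together took between 0.942% and 0.990% with R1881 + DMSO and between 0.984% and 1.05% with R1881 + enzalutamide. The share of the nuclear genes was thus slightly higher on average with enzalutamide although their CPM were slightly lower, because the deposited values of a library summed to 1053406 to 1078567 with R1881 + DMSO and to 985580 to 1008992 with R1881 + enzalutamide. With all library totals set equal the median of all genes moved from -0.01 to 0.07, and 9 nuclear members were lower and 18 higher. Of the 17018 genes tested in that fit, 4288 were lower and 6629 higher. The split of nuclear members into lower and higher therefore follows the scaling, while all 13 mitochondrial members were higher under each of 7 scalings or count tests, the deposited scaling included.

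**Figure D2:**
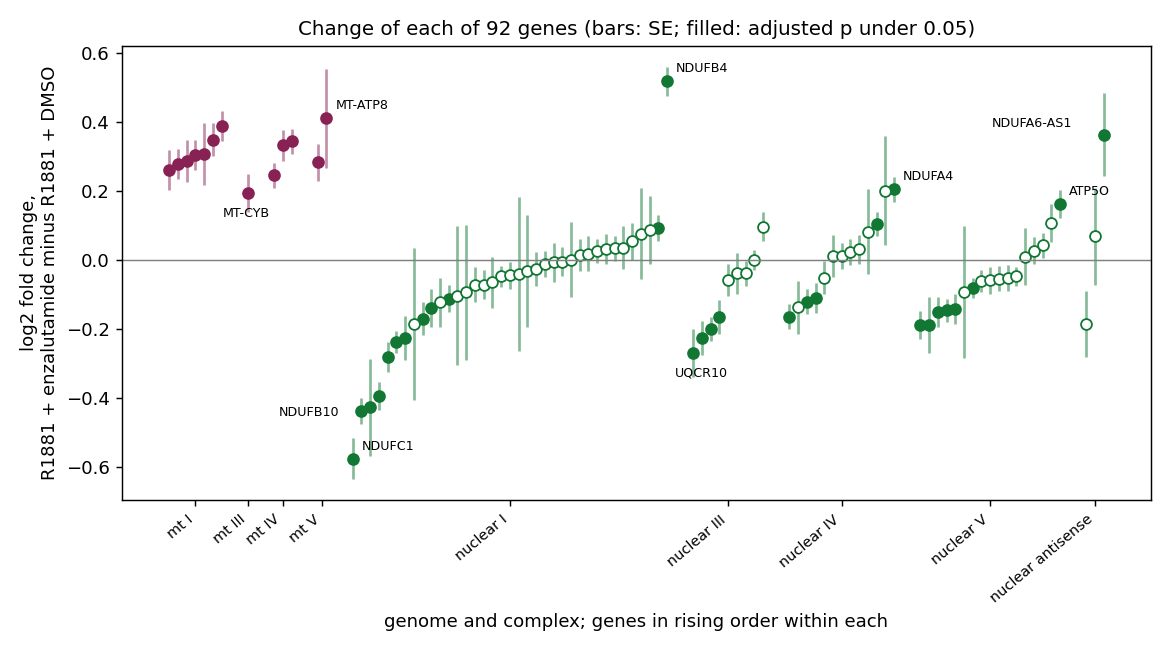
Log2 fold change of each of the 92 genes (R1881 + enzalutamide minus R1881 + DMSO), grouped by genome and complex and in rising order within each group, with bars for the SE and filled points for an adjusted p under 0.05. All 13 mitochondrial genes lie between 0.19 and 0.41, and the nuclear genes spread from -0.58 (NDUFC1) to 0.52 (NDUFB4).

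Among the mitochondrial members, complex IV had the highest levels. Its catalytic subunit MT-CO1 was the most abundant member, with 5782 CPM in the lowest R1881 + DMSO library, 5990 in the median and 6628 in the highest. In replicates 1 to 5 of R1881 + enzalutamide it had 7909, 7513, 7687, 7858 and 7870 CPM. The treatments were well separated, with a log2 fold change of 0.34 (SE 0.04, limma adjusted p 3.39e-08). MT-CO2, which carries the copper centre that receives electrons from cytochrome c, had from 2018 to 2362 CPM (median 2137) with R1881 + DMSO, and 2618, 2473, 2538, 2599 and 2541 CPM with R1881 + enzalutamide. MT-CO3, the third core subunit, had from 2398 to 3044 CPM (median 2722), and 3586, 3292, 3351, 3500 and 3511 CPM. Neither overlapped between treatments, and the log2 fold changes were 0.24 and 0.33 (limma adjusted p 7.63e-06 and 1.67e-06).

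The 7 mitochondrial subunits of complex I form the core of its membrane arm. MT-ND4 had from 2758 to 3466 CPM (median 3014) with R1881 + DMSO, and 3847, 3624, 3730, 3923 and 3857 CPM with R1881 + enzalutamide. MT-ND2 had from 1117 to 1431 CPM (median 1238), and 1623, 1518, 1500, 1652 and 1642 CPM. MT-ND3 had from 277 to 331 CPM (median 307), and 398, 383, 425, 389 and 410 CPM. These 3 genes and MT-ND5 did not overlap between treatments, and their log2 fold changes were 0.30, 0.35, 0.39 and 0.28. MT-ND1 (650 to 928 against 904 to 1024 CPM) and MT-ND4L (201 to 294 against 265 to 310 CPM) rose by 0.26 and 0.29 with overlapping ranges. MT-ND6 is the only member read from the other strand of the mitochondrial genome. In these libraries of polyadenylated RNA it had the lowest level, and how far the selection set this level was not examined. It had from 7.86 to 11.2 CPM with R1881 + DMSO and 12.3, 9.68, 12.2, 13.03 and 13.3 CPM with R1881 + enzalutamide. Its log2 fold change of 0.31 (SE 0.09, limma adjusted p 0.00567) lay in the middle of the genes of the opposite strand.

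Cytochrome b of complex III, MT-CYB, showed the smallest rise. It had from 1339 to 1784 CPM (median 1601) with R1881 + DMSO, and 1782, 1755, 2009, 1804 and 1707 CPM with R1881 + enzalutamide (log2 fold change 0.19, SE 0.05, limma adjusted p 0.00441). The ranges overlapped, since 3 of the R1881 + enzalutamide libraries lay at or below the highest R1881 + DMSO library. In complex V, MT-ATP6, the subunit next to the rotating ring, had from 1335 to 1730 CPM against 1840, 1686, 1746, 1925 and 1831 CPM (log2 fold change 0.28). MT-ATP8 had from 17.5 to 43.2 CPM against 33.0, 32.4, 37.3, 41.2 and 47.9 CPM. It had the largest log2 fold change of the mitochondrial members, 0.41, and also the largest error (SE 0.14, limma adjusted p 0.0168). Without replicate 5 of R1881 + enzalutamide its adjusted p was 0.0692, and against libraries 51 to 55 alone it was 0.0738. In all, 7 of 13 mitochondrial genes lay higher in every R1881 + enzalutamide library than in every R1881 + DMSO library, against 17.1% of all genes tested.

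**Figure D3:**
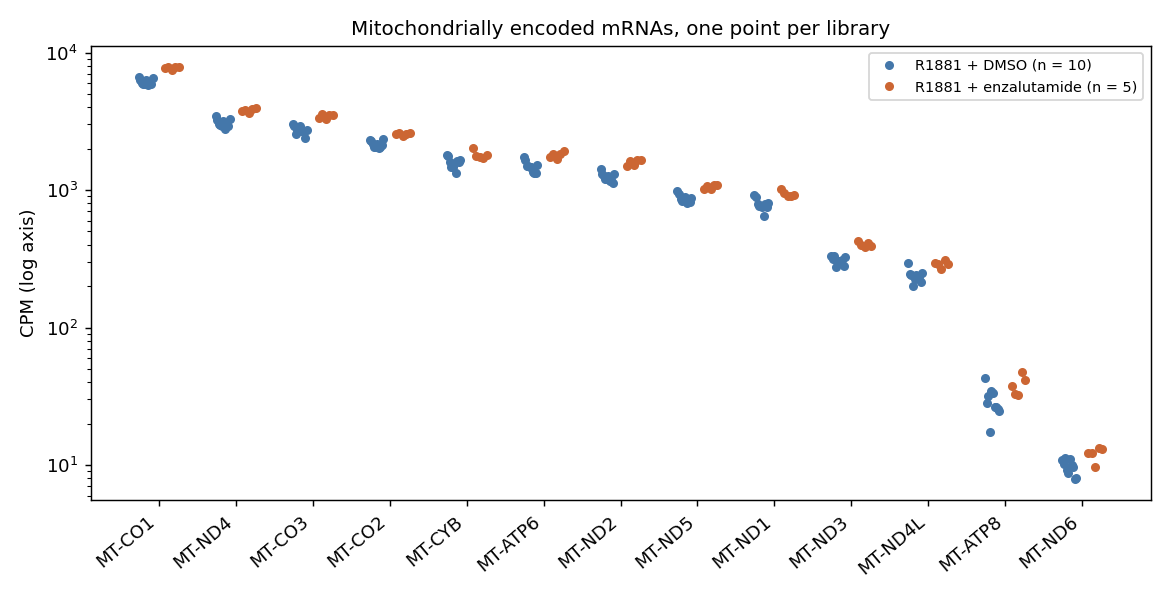
CPM of each mitochondrially encoded message on a log axis, with a point per library (10 with R1881 + DMSO, 5 with R1881 + enzalutamide), in the order of the R1881 + DMSO mean. Levels run from MT-CO1 at 6127 CPM to MT-ND6 at 9.70 CPM on average, and the points of R1881 + enzalutamide are shifted upward at every gene.

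The shares of single genes in the mitochondrial sum shifted little, with no test of differences between genes. MT-CO1 made up 29.7 ± 0.551% (SD, n = 10) of the 13-gene sum with R1881 + DMSO and 30.5 ± 0.197% (SD, n = 5) with R1881 + enzalutamide, and MT-ND4 made up 14.9 ± 0.196% and 14.9 ± 0.154%. MT-CYB went from 7.67 ± 0.380% to 7.11 ± 0.494%, and the ratio of MT-CO1 to MT-CYB from 3.88 ± 0.225 to 4.30 ± 0.293. The R1881 + DMSO libraries numbered 71 to 75 and 51 to 55 did not differ in any of the 13 genes at the threshold (limma), where 2.35% of all genes were called lower and 0.821% higher in libraries 71 to 75. The log2 differences ran from -0.16 to -0.0047 and were negative for all 13.

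Levels are given here per kilobase of transcript, which allows for length. It does not allow for reads that also match copies elsewhere in the genome. With R1881 + DMSO these were 3973 CPM per kb for MT-CO1, 3500 for MT-CO3, 3155 for MT-CO2, 2235 for MT-ND4 and 2183 for MT-ATP6. MT-ATP8 had 141 CPM per kb although it shares a bicistronic message with MT-ATP6, and MT-ND4L had 802 CPM per kb against 2235 for its partner MT-ND4. The reading frames of these pairs overlap on the same strand, by 46 bases for MT-ATP8 and MT-ATP6 and by 7 bases for MT-ND4L and MT-ND4. A read of 50 bases in such a stretch belongs to both genes, and the sources used here do not state how reads shared by 2 genes were counted. The stretches are shown because these pairs had the most unequal levels within a single message (GRCh38, plus strand, chrM:8507-8592 and chrM:10740-10786, capitals for the bases in both frames).
MT-ATP8/MT-ATP6: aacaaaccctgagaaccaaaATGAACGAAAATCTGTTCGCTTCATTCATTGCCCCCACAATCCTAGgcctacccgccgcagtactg
MT-ND4L/MT-ND4: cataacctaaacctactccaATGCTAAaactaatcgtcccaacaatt

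The nuclear genome holds copies of mitochondrial genes, and short reads can fall on either. Of all windows of 50 bases in MT-CO1, 50.6% were also found, without a mismatch, in the nuclear chromosomes, as were 46.7% of those in MT-ATP6 and 43.6% of those in MT-ND2. For MT-CYB the share was 1.65%, and MT-ND3 and MT-ND4L had none. The rise was present in both kinds of gene: the 7 mitochondrial genes with 19% or more of such windows had a median log2 fold change of 0.31 (0.24 to 0.35), and the 6 with fewer than 10% a median of 0.30 (0.19 to 0.41). Among 14 pseudogene rows of mitochondrial messages, 10 were higher and none lower. The largest of them, MTCO1P12 on chromosome 1 (chr1:631074-632616, unprocessed pseudogene), had 3252 ± 152 CPM (SD, n = 10) with R1881 + DMSO and 4148 ± 107 CPM (SD, n = 5) with R1881 + enzalutamide (log2 fold change 0.35, limma adjusted p 1.60e-08). It matched MT-CO1 at 1522 of 1542 aligned bases (98.7%). The same stretch of both genes (chrM:6204-6303 and chr1:631374-631473, GRCh38, plus strand) shows how few bases tell them apart, with capitals for the 4 bases that differ.
MT-CO1: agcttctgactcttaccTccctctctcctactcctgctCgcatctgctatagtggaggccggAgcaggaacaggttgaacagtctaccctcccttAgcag
MTCO1P12: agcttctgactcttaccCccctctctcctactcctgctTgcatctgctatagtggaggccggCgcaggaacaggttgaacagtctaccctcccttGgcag

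With the 14 pseudogene rows added to the mitochondrial sum, the log2 ratio to the nuclear sum differed by 0.35 between treatments, as without them. Of 7 ribosomal and transfer RNA rows of the mitochondrial genome, 3 were higher and none lower, with log2 fold changes from -0.04 to 0.38. MT-RNR2, the large ribosomal RNA, had 7765 ± 399 against 9810 ± 518 CPM (log2 fold change 0.34, limma adjusted p 3.49e-07), and MT-RNR1, the small one, had 1148 ± 83.2 against 1229 ± 48.4 CPM (0.10, adjusted p 0.0590). Whether these 2 differed in their change was not tested. These RNAs enter a poly(A) selection only in part, so their levels are not totals.

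Complex I held the largest changes among the nuclear members. Of its 36 nuclear subunits, 10 were lower and 2 higher, with a median log2 fold change of -0.04. The lowest was NDUFC1, a small accessory subunit of the membrane arm (chr4:139266880-139302551, minus strand). It had 41.2 CPM in the lowest R1881 + DMSO library, 50.9 in the median and 55.1 in the highest, and 31.5, 31.6, 37.1, 33.8 and 32.7 CPM in replicates 1 to 5 of R1881 + enzalutamide. All 5 R1881 + enzalutamide values were under the lowest R1881 + DMSO value, and the log2 fold change was -0.58 (SE 0.06, limma adjusted p 3.85e-08).

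NDUFB10, an accessory subunit at the far end of the membrane arm (chr16:1959538-1961975, plus strand), had from 99.1 to 111 CPM (median 103) with R1881 + DMSO, and 72.6, 79.03, 81.1, 75.5 and 77.0 CPM with R1881 + enzalutamide. The gap between treatments was wider than the range within either (log2 fold change -0.44, SE 0.04, limma adjusted p 2.15e-09). NDUFS8, a core subunit that carries iron-sulfur clusters, had from 22.9 to 48.8 CPM (median 28.4), and 17.2, 28.2, 23.7, 19.9 and 25.3 CPM. Its log2 fold change of -0.43 had a large error (SE 0.14, limma adjusted p 0.0117), the ranges overlapped, and the call was lost without replicate 1 of R1881 + enzalutamide (adjusted p 0.0530) and with all library totals set equal (0.0511).

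In the opposite direction, NDUFB4, another accessory subunit of the membrane arm (chr3:120596328-120602507, plus strand), had from 167 to 200 CPM (median 181) with R1881 + DMSO. With R1881 + enzalutamide it had 241, 262, 279, 272 and 267 CPM. It showed the largest rise of any of the 92 genes, 0.52 on the log2 scale (SE 0.04, limma adjusted p 9.30e-10), with no overlap. Of the windows of 50 bases in its transcript, 12.8% were also found elsewhere in the genome, against none in NDUFC1 and NDUFB10. NDUFA10, an accessory subunit of the membrane arm on its matrix side, rose slightly (79.3 ± 3.41 against 84.5 ± 2.79 CPM, log2 fold change 0.09, limma adjusted p 0.0336), and without replicate 1 of R1881 + enzalutamide its adjusted p was 0.0915. NDUFV1, the core subunit that binds NADH, had 94.2 ± 15.8 against 99.7 ± 13.8 CPM and did not pass the threshold (adjusted p 0.460).

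A further 3 accessory subunits of complex I, named after their values were seen, fell without overlap and kept this call under each scaling. NDUFC2, the partner of NDUFC1 by name and position in the complex, had 69.6 ± 3.81 CPM (SD, n = 10) with R1881 + DMSO and 52.8 ± 1.97 CPM (SD, n = 5) with R1881 + enzalutamide. NDUFA6 had 55.5 ± 2.84 against 45.6 ± 2.12 CPM. NDUFV3, which sits beside the NADH-binding subunits, had 70.3 ± 1.70 against 59.6 ± 1.77 CPM. The log2 fold changes were -0.39, -0.28 and -0.24. The gene spans of NDUFC1, NDUFC2 and NDUFA6 each overlap another gene on the same strand in the GENCODE v44 annotation. These are MGARP, the readthrough gene NDUFC2-KCTD14 and a gene without a name. Whether exons or reads were shared with these genes was not examined. The 7 core nuclear subunits of complex I had log2 fold changes from -0.43 to 0.09, with NDUFS8 past the threshold, and the 29 accessory subunits from -0.58 to 0.52, with 9 lower and 2 higher. The difference between core and accessory subunits was not tested.

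**Figure D4:**
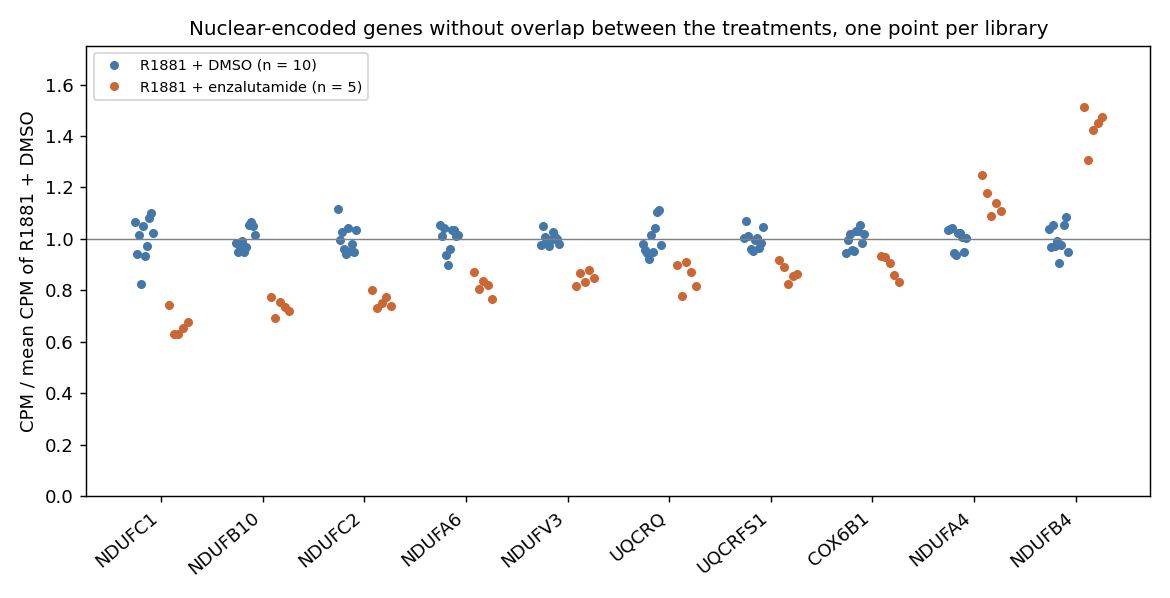
CPM of the 10 nuclear-encoded genes whose treatments do not overlap, each divided by its mean in R1881 + DMSO, with a point per library (10 with R1881 + DMSO, 5 with R1881 + enzalutamide). The points of R1881 + enzalutamide lie below 1 at 8 genes and above 1 at NDUFA4 and NDUFB4.

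Over the nuclear members, 8 genes lay lower in every R1881 + enzalutamide library than in every R1881 + DMSO library, and 2 lay higher. The corresponding shares of all genes tested were 20.1% and 17.1%, given here as a description. Of the 23 genes called lower, 7 kept the call under each of 7 scalings or count tests and in each of 32 fits in all (NDUFC1, NDUFC2, NDUFB10, NDUFA6, NDUFV3, UQCRQ and UQCRFS1). Of the 6 called higher, all kept the call under the 7 scalings or count tests, and NDUFB4, NDUFA4 and ATP5O kept it in all 32 fits. For the mitochondrial genes the numbers were 13 and 12, MT-ATP8 being the exception. The 50 nuclear members not past the threshold lay between -0.19 (NDUFB7) and 0.20 (NDUFA4L2). The divergent RNA NDUFA6-AS1 (now NDUFA6-DT), named after its values were seen, rose from 9.86 ± 1.45 to 12.98 ± 3.10 CPM (log2 fold change 0.36, limma adjusted p 0.0118).

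In complex III, 4 of 9 nuclear members were lower and none higher as deposited, with a median of -0.06. UQCRFS1, the Rieske iron-sulfur protein that takes electrons from ubiquinol, had from 158 to 177 CPM (median 165) with R1881 + DMSO, and 147, 136, 151, 143 and 141 CPM with R1881 + enzalutamide (log2 fold change -0.20, SE 0.03, limma adjusted p 2.74e-05). UQCRQ, a small subunit next to cytochrome b, had from 151 to 182 CPM (median 160), and 127, 149, 147, 133 and 142 CPM (-0.23, adjusted p 0.000377). Both were separated between treatments, although 22.8% of windows of 50 bases in UQCRFS1 also occurred elsewhere in the genome.

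UQCR10, another small subunit, had 61.5 ± 6.74 against 50.9 ± 4.70 CPM (log2 fold change -0.27, limma adjusted p 0.00224) with overlapping ranges. UQCRC2, a core protein, had 309 ± 9.19 against 309 ± 9.63 CPM. UQCRH, the hinge protein, had 240 ± 10.6 against 234 ± 11.2 CPM, and UQCRB 187 ± 10.6 against 200 ± 10.6 CPM (log2 fold change 0.10, adjusted p 0.0552). None of these last 3 passed the threshold as deposited. UQCRB stayed below it under only 1 of 7 scalings or count tests, and was called higher in 14 of 32 fits. With all library totals set equal, UQCRB (0.19, limma adjusted p 0.000296) and UQCRC2 (0.09, adjusted p 0.00286) both passed as higher. Complex III thus combined a mitochondrial subunit that rose by 0.19 with nuclear partners between -0.27 and 0.10.

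In complex IV, 3 of 13 nuclear members were lower and 2 higher, with a median of 0.01. NDUFA4, once assigned to complex I and now placed in complex IV, had from 309 to 343 CPM (median 334) with R1881 + DMSO, and 388, 358, 411, 366 and 375 CPM with R1881 + enzalutamide. Each of the 5 libraries lay above all 10 others (log2 fold change 0.20, SE 0.04, limma adjusted p 5.80e-05). COX7C had 333 ± 13.01 against 358 ± 16.4 CPM (0.11, adjusted p 0.0121), a call that was lost without replicate 3 of R1881 + enzalutamide (adjusted p 0.0525) and against libraries 71 to 75 alone (0.0527). COX6B1, which faces the intermembrane space, had from 174 to 194 CPM, and 171, 166, 172, 153 and 158 CPM (-0.16, adjusted p 0.000441), but its call was lost with all library totals set equal (-0.07, adjusted p 0.0818). COX8A had 94.1 ± 10.5 against 85.7 ± 11.02 CPM and did not pass the threshold (adjusted p 0.129).

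Some subunits of complex IV exist as alternative forms. COX7A2, the form found in most tissues, had 145 ± 8.09 against 148 ± 7.25 CPM, and COX7A2L, its relative that links complexes III and IV, had 87.3 ± 2.87 against 80.3 ± 3.88 CPM (log2 fold change -0.12, limma adjusted p 0.00599, lost with all library totals set equal at 0.476). COX6A1 had 144 ± 5.45 against 146 ± 8.01 CPM, and 59.8% of its windows of 50 bases also occurred elsewhere in the genome. COX7B had 118 ± 7.31 against 114 ± 8.03 CPM and its testis-type relative COX7B2 1.51 ± 0.296 against 1.63 ± 0.357 CPM. NDUFA4L2, the relative of NDUFA4 known from hypoxic cells, had 1.03 ± 0.361 against 1.28 ± 0.515 CPM. COX7A2, COX7B and NDUFA4 were each more abundant than the relative named with them. The alternative forms COX6A2, COX6B2, COX7A1, COX8C and COX4I2 were not analysed here.

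Complex V had the highest nuclear levels. Its catalytic subunit ATP5B had 1525 ± 43.1 CPM (SD, n = 10) with R1881 + DMSO and 1441 ± 44.4 CPM (SD, n = 5) with R1881 + enzalutamide, and ATP5A1, the partner in the catalytic head, 1082 ± 30.3 against 1046 ± 32.4 CPM. Per kilobase, ATP5B had 867 CPM with R1881 + DMSO, the highest level of a nuclear member, and 8 of the 13 mitochondrial messages were above it (MT-CO1, MT-CO3, MT-CO2, MT-ND4, MT-ATP6, MT-CYB, MT-ND2 and MT-ND3). Both genes of the catalytic head were named after their values were seen. ATP5B was called lower as deposited (log2 fold change -0.08, limma adjusted p 0.0172). This call was kept under 4 of 7 scalings or count tests, and the log2 fold change was 0.01 with all library totals set equal. Of 16 nuclear members, 6 were lower and 1 higher, with a median of -0.06. ATP5J2 and ATP5I, small membrane subunits (now ATP5MF and ATP5ME), had 126 ± 4.04 against 110 ± 8.37 CPM and 73.2 ± 8.76 against 64.1 ± 7.77 CPM, each with a log2 fold change of -0.19. ATP5J, coupling factor 6 of the peripheral stalk (now ATP5PF), had 113 ± 6.23 against 102 ± 6.36 CPM (-0.15).

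ATP5O, the stalk subunit that ties the stalk to the head (OSCP, now ATP5PO), was the exception. It had from 67.0 to 77.3 CPM (median 73.9) with R1881 + DMSO, and 84.3, 74.9, 86.8, 84.2 and 81.4 CPM with R1881 + enzalutamide. Replicate 2 of R1881 + enzalutamide lay within the R1881 + DMSO range, the other 4 above it (log2 fold change 0.16, SE 0.04, limma adjusted p 0.00131). ATP5H, also of the stalk, had 119 ± 4.54 against 123 ± 5.83 CPM (adjusted p 0.319), and the associated ATP5S 40.3 ± 3.21 against 43.3 ± 1.78 CPM (0.0924). The calls on ATP5J and ATP5I were lost with all library totals set equal (adjusted p 0.237 and 0.338). That on ATP5I was kept in 12 of 32 fits and under 1 of 7 scalings or count tests, and without replicate 1 of R1881 + enzalutamide its adjusted p was 0.168.

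The identical ring subunit c is encoded by 3 nuclear genes that differ in their import sequences. ATP5G2, the most abundant of them, had 279 ± 12.7 against 284 ± 15.9 CPM (limma adjusted p 0.555). ATP5G3 had 187 ± 6.39 against 169 ± 7.06 CPM and ATP5G1 79.7 ± 3.63 against 72.2 ± 5.34 CPM, with log2 fold changes of -0.15 and -0.14 (adjusted p 0.000644 and 0.00857). With all library totals set equal neither of these passed (adjusted p 0.164 and 0.334), and ATP5G2 did, as higher (0.12, adjusted p 0.0115). Whether ATP5G2 and the other forms differed in their change was not tested.

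Subunits that the symbol rule does not match showed small changes. Complex II, which has no mitochondrial gene, had SDHA at 120 ± 6.71 against 120 ± 7.36 CPM, SDHB at 56.4 ± 3.002 against 57.8 ± 1.70 CPM and SDHD at 73.9 ± 4.19 against 74.2 ± 5.79 CPM. SDHC was higher (248.7 ± 10.6 against 268 ± 9.46 CPM, log2 fold change 0.11, limma adjusted p 0.00942). COX4I1 of complex IV had 346 ± 17.1 against 348 ± 18.1 CPM, and CYC1 of complex III 107 ± 14.3 against 96.7 ± 11.2 CPM. CYCS, the electron carrier cytochrome c, fell from 272 ± 17.3 to 225 ± 15.3 CPM (-0.27, adjusted p 4.92e-05), and NDUFAB1, the acyl carrier protein of complex I, from 91.4 ± 5.10 to 82.5 ± 4.41 CPM (-0.15, adjusted p 0.00612). Under older names, ATPIF1, the inhibitor of ATP synthase, was higher (0.17, adjusted p 0.000550), C14orf2 lower (-0.11, adjusted p 0.0225), and USMG5 not past the threshold.

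Not every nuclear member was measured equally well. Of the members with at least 5 CPM in R1881 + DMSO, the 7 with a GC content of 60% or more (NDUFB7, NDUFS7, NDUFA11, NDUFA13, ATP5D, NDUFS8 and NDUFV1) had an SD between R1881 + DMSO libraries of 0.22 to 0.51 on the log2 scale, median 0.45. The 42 nuclear members below 50% GC had 0.03 to 0.16, median 0.07. NDUFB7, an accessory subunit of complex I, had from 9.75 to 32.8 CPM (median 13.9) with R1881 + DMSO and 8.47, 20.9, 14.5, 12.2 and 13.3 CPM with R1881 + enzalutamide. In each of the 7 genes, most of them named after their values were seen, replicate 2 was the highest of the R1881 + enzalutamide libraries. Of these 7 genes, NDUFS8 alone was past the threshold as deposited, and NDUFV1 passed it, as higher, with the trend on GC content removed (log2 fold change 0.17, limma adjusted p 0.000344).

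**Figure D5:**
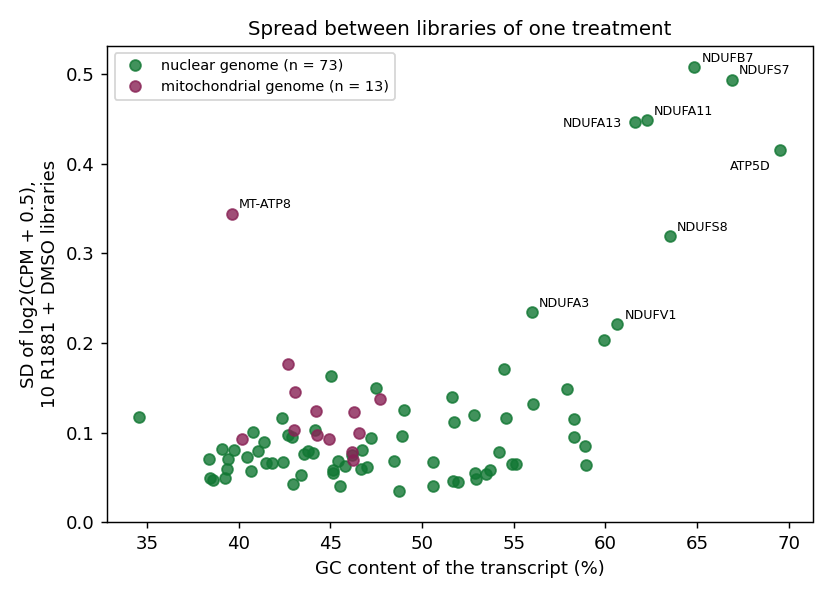
SD of log2(CPM + 0.5) over the 10 R1881 + DMSO libraries against the GC content of the transcript (%), for the 86 members with a mean of at least 5 CPM there (73 nuclear, 13 mitochondrial). The nuclear members at 60% GC or more have an SD of 0.22 to 0.51, and MT-ATP8, at 39.6% GC, has 0.34.

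Across these 86 genes, which share libraries and depth, Spearman's rho between GC content and the SD was 0.31 in R1881 + DMSO and 0.41 in R1881 + enzalutamide, and between GC content and the log2 fold change -0.31. For the log2 fold change of the 73 nuclear genes alone, rho was -0.25. With the trend on GC content removed in each library, 21 nuclear members were lower and 16 higher, all 13 mitochondrial members were still higher with a median of 0.33, and the log2 ratio of the sums differed by 0.33. Low values also set a limit. NDUFV2 and NDUFA7, subunits of complex I named after their values were seen, had 1.48 ± 0.354 and 0.664 ± 0.299 CPM with R1881 + DMSO, and each overlaps another gene on the same strand in GENCODE v44.

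Promoters of nuclear subunits are known to hold sites of nuclear respiratory factor 1 (NRF1), of the ETS factor GABPA, of YY1 and of SP1. In RefSeq promoters (GRCh38, 250 bases before to 50 after the start), 59 of the 74 nuclear subunits and paralogs had an entry. The NRF1 core GCGCATGCG was found on either strand in 15.3% of them, against 3.85% of 10537 promoters of genes in the expression table and 2.10% of all 27305 promoters. The ETS core CCGGAAG was in 27.1% (19.5% and 10.7%), the YY1 core AAGATGGCG in 11.9% (4.06% and 1.85%) and the SP1 core GGGCGG in 61.0% (69.8% and 44.6%). The androgen receptor half-site AGAACA was in 11.9% (8.71% and 14.9%), in none of 18 promoters of genes called lower and none of 4 of genes called higher. It was in 7 of 37 promoters of genes not called. These are letter matches in a short window, with no test.

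The promoters of the 3 nuclear genes with the largest changes are shown with the matches in capitals, as the 250 bases before the start (RefSeq, GRCh38: chr4:139302552-139302801 minus strand, chr16:1959288-1959537 plus strand, chr3:120596086-120596335 plus strand). NDUFC1 and NDUFB10, which fell, each held an SP1 core within 25 bases of the start. NDUFB4, which rose, held an NRF1 core that reads on both strands. Over the 59 promoters, the SP1 core was in 10 of 18 of genes called lower, 3 of 4 called higher and 23 of 37 not called. The NRF1 core was in 3 of 18, 1 of 4 and 5 of 37 in the same order.
NDUFC1: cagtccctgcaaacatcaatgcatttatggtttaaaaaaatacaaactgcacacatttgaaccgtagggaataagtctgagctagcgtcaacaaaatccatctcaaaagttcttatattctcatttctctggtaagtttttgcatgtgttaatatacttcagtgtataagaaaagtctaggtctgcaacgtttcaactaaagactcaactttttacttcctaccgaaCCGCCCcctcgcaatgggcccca
NDUFB10: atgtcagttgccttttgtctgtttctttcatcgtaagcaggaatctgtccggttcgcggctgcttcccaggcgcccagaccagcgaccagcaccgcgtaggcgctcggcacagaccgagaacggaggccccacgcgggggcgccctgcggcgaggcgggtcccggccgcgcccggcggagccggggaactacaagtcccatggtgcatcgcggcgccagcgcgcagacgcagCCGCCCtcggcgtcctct
NDUFB4: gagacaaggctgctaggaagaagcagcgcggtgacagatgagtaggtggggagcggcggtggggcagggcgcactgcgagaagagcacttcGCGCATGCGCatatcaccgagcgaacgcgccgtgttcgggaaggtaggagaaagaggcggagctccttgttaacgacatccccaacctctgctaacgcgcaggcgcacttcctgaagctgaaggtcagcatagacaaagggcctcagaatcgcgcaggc

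Regulators of mitochondrial biogenesis moved in both directions. Transcripts of NRF1 (12.5 ± 0.980 against 12.5 ± 1.05 CPM), GABPA (43.4 ± 2.74 against 45.2 ± 4.13 CPM) and YY1 (112 ± 6.13 against 112 ± 3.62 CPM) did not pass the threshold. Of the 11 regulators in the table, 4 were lower and 3 higher (36.4% and 27.3%). These are near the shares of all genes tested, 32.7% and 29.8%. Named after their values were seen, GABPB1, the partner of GABPA, fell from 57.0 ± 3.70 to 46.04 ± 4.01 CPM (log2 fold change -0.31, limma adjusted p 5.26e-05), and the nuclear receptor ESRRG rose from 1.31 ± 0.346 to 3.13 ± 0.415 CPM (1.02, adjusted p 4.09e-07). The coactivator PPRC1 fell from 61.9 ± 3.99 to 42.2 ± 2.03 CPM (log2 fold change -0.55) and PPARGC1B from 8.65 ± 1.09 to 6.62 ± 0.462 CPM (-0.36), while MYC rose from 107 ± 10.96 to 136 ± 8.88 CPM (0.36) and SIRT1 from 58.9 ± 3.88 to 64.3 ± 3.73 CPM (0.13, limma adjusted p 0.0327).

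Of 30 genes that copy, transcribe and process the mitochondrial genome, 13 were lower and 6 higher, with a median log2 fold change of -0.10, where 32.7% and 29.8% of all genes were lower and higher. With all library totals set equal, 9 were lower and 10 higher, where 4288 of 17018 genes tested were lower and 6629 higher. MTERF4, which acts in assembly of the mitochondrial ribosome, fell from 116 ± 4.97 to 81.7 ± 4.96 CPM (-0.50), and POLG, the polymerase that copies the genome, from 44.6 ± 3.84 to 32.2 ± 2.92 CPM (-0.46). MTERF2 rose from 24.1 ± 1.30 to 34.9 ± 2.50 CPM (0.53) and POLG2, the accessory subunit of the polymerase, from 7.86 ± 0.771 to 11.1 ± 0.491 CPM (0.48). Named after their values were seen, TFAM, which packs the genome and starts its transcription, had 107 ± 5.23 against 108 ± 6.81 CPM, POLRMT, the RNA polymerase, 18.4 ± 4.16 against 17.9 ± 3.62 CPM, and LRPPRC, which stabilises mitochondrial messages, 178 ± 11.4 against 202 ± 12.8 CPM (0.18, limma adjusted p 0.00224).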

How the data were processed

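RNA of LNCaP cells was sequenced as polyadenylated, strand-marked libraries with single-end reads of 50 bases. The authors mapped reads to GRCh38 with STAR and counted them per gene with featureCounts (bcl2fastq 2.17 before that, per the labels). Strand setting, annotation, handling of reads shared between genes and library scaling are stated in none of the sources used here. The deposited values are a normalised signal that the methods call CPM, and 100% came out as whole reads when divided by what a single read is worth (tolerance 0.01 reads). The design, set for CPM, was kept: limma 3.58.1 with trend in R 4.3.3 on log2(CPM + 0.5), mean CPM of at least 0.5, all 15 libraries, treatment as the only term, with the steps tested on simulated data. On the recovered reads, edgeR 4.0.16 called 4948 genes lower and 5796 higher, and DESeq2 1.42.0 was also run. All 92 members passed the filter.

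Positions, lengths and GC content (canonical transcripts) are from GENCODE v44, matched for all members and 85.8% of the table. Named genes are the mitochondrial members, the 3 lowest and 3 highest nuclear members per complex with a mean CPM of at least 5, subunit families, unmatched subunits, and the 2 lowest and 2 highest called genes per list. Members and lists were chosen with earlier results of these data known. The methods text gives the library numbers of the treatments the other way round from the labels, which were followed.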

Additional observations from a re-analysis of the deposited data

Results flagged for a closer look

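In a group of libraries, a single library stood far from the others in 4 of 94 groups examined among the members, where chance alone gives about 1 in 20. MT-ND4L had 294 CPM in replicate 9 of R1881 + DMSO, where the other 9 libraries lay between 201 and 249.02 CPM, and its log2 fold change without that library was 0.32. COX8A had 120 CPM in replicate 6 of R1881 + DMSO, against 83.7 to 103 CPM in the others, with a log2 fold change of -0.10 without it. NDUFA4L2 had 1.98 CPM in replicate 6 of R1881 + DMSO (others 0.703 to 1.20) and 2.19 CPM in replicate 2 of R1881 + enzalutamide (others 0.898 to 1.117). Its log2 fold change was 0.28 without the former and 0.04 without the latter, and it was not past the threshold in the fit of all libraries.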

How the results depend on the processing

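The 13 mitochondrial members were higher in 13 of 13 under all alternatives but R1881 + DMSO libraries 51 to 55 alone and the fit without R1881 + enzalutamide replicate 5, with 12 each, and none was lower in any. Their median log2 fold change moved by more than 0.103, the SD of their median log2 level among R1881 + DMSO libraries, only with totals outside the mitochondrial genome set equal (0.409). The difference of the log2 ratio ranged from 0.314 to 0.377, and from 0.33 to 0.363 with each library left out.

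The nuclear counts (23 lower, 6 higher) depended on the scaling: 9 and 18 with library totals set equal, 7 and 23 with totals outside the mitochondrial genome set equal, 16 and 10 with edgeR, 21 and 16 with the trend on GC content removed, and 15 and 14 with that on transcript length removed. The nuclear median was 0.042, 0.055, -0.01, -0.013 and 0.026 in the same order. Over all genes tested, 4288 were lower and 6629 higher with library totals set equal. With totals outside the mitochondrial genome set equal, the counts over all genes were 4129 and 6888. For the nuclear members, leaving out each library gave 20 to 23 lower and 4 to 7 higher. Without the antisense or divergent RNAs and associated proteins, an alternative added after seeing the data like the sum with pseudogenes, 23 were lower and 5 higher. Of the 98 genes named by the choices listed above, 1 reversed: MT-TD, a transfer RNA, at -0.154 with the trend on GC content removed. ATP5B, named after its values were seen and not among the 98, was called lower as deposited and also changed sign. It had 0.012 with library totals set equal and 0.025 with totals outside the mitochondrial genome set equal. With the trend on transcript length removed it had 0.007.

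With the replicate number of the titles as a block, on the 10 libraries that share numbers, 17 nuclear members were lower and 7 higher with a median of -0.014, and 13 mitochondrial members were higher. Samples with the same number did not deviate together (correlations from -0.068 to 0.074). Such values cannot settle whether the numbers pair the libraries by design, and the labels do not say. By the last digit of the library number the correlations ran from -0.417 to 0.668, and 23 nuclear members were lower and 7 higher.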

Other observations

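Assembly factors build the complexes without staying in them. Beside the counts of lists here, 32.7% of all genes tested were lower and 29.8% higher as deposited. With all library totals set equal, 4288 of 17018 genes tested were lower and 6629 higher. The counts of lists were described without a test. Of 22 assembly factors of complex IV, 11 were lower and 2 higher, with a median log2 fold change of -0.11 (5 and 5 with all library totals set equal), and the fall was largest in CMC2 (91.9 ± 4.92 to 30.8 ± 1.71 CPM, -1.56), COX18, which inserts the second mitochondrial subunit (82.5 ± 5.64 to 44.2 ± 3.03 CPM, -0.89), and COX17, the copper chaperone, named after its values were seen (55.0 ± 5.27 to 30.9 ± 2.11 CPM, -0.82). SURF1 (0.12) and COA5 (0.24) were the 2 that rose. Of 16 assembly factors of complex I, 6 were lower, among them NDUFAF2 (-0.47) and TIMMDC1 (-0.38), and 4 higher, among them NDUFAF6 (0.36) and NDUFAF4, which went from 22.8 ± 1.30 to 47.4 ± 1.92 CPM (1.04). With all library totals set equal, 4 were lower and 4 higher. In complex III, UQCC2 fell (-0.27) and UQCC1 rose (0.42), and in complex V TMEM70 fell (-0.23) and ATPAF1 rose (0.22).

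The mitochondrial ribosome, which translates the 13 messages, had 36 of 76 proteins lower and 6 higher, with a median of -0.11. With all library totals set equal, 23 were lower and 18 higher. Over all genes tested, 32.7% were lower and 29.8% higher as deposited, and 4288 of 17018 lower and 6629 higher with totals set equal. MRPS18A fell from 51.5 ± 4.26 to 22.9 ± 1.68 CPM (-1.15) and MRPL36 from 30.7 ± 2.41 to 19.96 ± 1.74 CPM (-0.61), while MRPS27 rose from 184 ± 7.88 to 255 ± 10.4 CPM (0.47) and MRPL35 by 0.34. Of 20 genes for import, carriers and matrix proteins, 14 were lower and 1, IMMT (0.14), higher, with a median of -0.20, and with all library totals set equal 11 were lower and 4 higher. TIMM23 of the inner membrane import channel fell from 107 ± 4.30 to 62.7 ± 2.71 CPM (-0.76), TOMM40 of the outer membrane from 45.2 ± 6.98 to 29.1 ± 4.05 CPM (-0.62) and TOMM70A by 0.14. The nuclear copies of the large ribosomal RNA gene (MTRNR2L) rose in 5 of 6 rows with a median of 0.32, near MT-RNR2 itself.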
